A study of Mus musculus with 30 samples.

Results

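The cytosolic ribosomal protein genes encode the proteins of the ribosome that translates mRNA in the cytoplasm. They were taken as all gene symbols of the deposited count files made of Rpl or Rps with a number and at most a closing a, x or l, together with Rplp0, Rplp1 and Rplp2. The rule found 80 genes among 22609, of which 49 belong to the large subunit and 31 to the small subunit. It takes in the paralogs Rpl3l, Rpl10l, Rpl39l and Rps27l, and leaves out ribosomal protein genes such as Rpsa, Fau and Rpl7l1, which do not follow the naming pattern.

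A ribosome joins a small subunit, which reads the mRNA, to a large subunit, which links the amino acids, and each subunit holds rRNA and a single copy of most of its proteins. The mRNAs of these proteins are among the most abundant in growing cells, and most begin with a tract of pyrimidines, the terminal oligopyrimidine (TOP) motif, through which mTORC1 signalling controls their translation as a set. The genes have also left many processed pseudogenes in mammalian genomes, which resemble the spliced mRNAs and complicate the assignment of short reads.

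C57BL/6J mice of 10 to 12 weeks received prolactin (PRL, 1 µg), a pituitary hormone, or its vehicle (Veh) by injection in the hind paw, and RNA of the paw and of dorsal root ganglia (DRG), where sensory neurons have their somata, was sequenced. There were 10 groups of 3 libraries. Female DRG PRL, female DRG Veh, male DRG PRL, male DRG Veh, female paw PRL, female paw Veh, male paw PRL and male paw Veh were made by rRNA depletion, whereas female DRG PRL_Sh and female paw PRL_Sh came from an mRNA kit. The meaning of Sh is not explained in the labels, and the protocol's single injection and its daily injections over 12 days are not tied to particular libraries. By label, 18 libraries are female and 12 male, and the series text has these numbers the other way round. Nothing states that replicates came from separate animals, so p-values measure only the spread between these samples, which may be technical.

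Gene reads numbered 8.99 to 13.3 M in rRNA-depleted DRG libraries, 6.87 to 13.5 M in rRNA-depleted paw libraries and 21.8 to 26.5 M in PRL_Sh libraries. The tissue labels fitted their markers. Sensory neuron markers summed to 10320 to 13453 CPM (reads of a gene scaled to the gene reads of its library) in rRNA-depleted DRG, against 26.4 to 54.2 CPM in rRNA-depleted paw, and keratinocyte markers to 7.57 to 87.1 CPM in DRG, against 31984 to 61608 CPM in paw. Skeletal muscle markers were uneven, at 288.3 to 27531 CPM in DRG and 2664 to 137040 CPM in paw.

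Most ribosomal protein mRNAs begin with the TOP motif, so the annotated starts of 8 genes on which the results below turn are shown. Each line gives 30 bases before and 30 bases from the RefSeq gene start (GRCm38.p6), on the gene's strand, 5′ to 3′. The counts were made on another build, mm9. Capitals mark the longest run of at least 6 bases that opens with C and holds only C and T.
Rplp0 (chr5:115559437-115559496, plus strand): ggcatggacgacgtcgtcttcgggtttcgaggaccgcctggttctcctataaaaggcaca
Rps18 (chr17:33955636-33955695, minus strand): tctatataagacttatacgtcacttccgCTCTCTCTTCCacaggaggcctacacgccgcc
Rps26 (chr10:128626477-128626536, minus strand): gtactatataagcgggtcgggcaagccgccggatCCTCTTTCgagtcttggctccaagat
Rpl4 (chr9:64173357-64173416, plus strand): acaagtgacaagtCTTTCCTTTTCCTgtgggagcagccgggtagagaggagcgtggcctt
Rpl5 (chr5:107900498-107900557, plus strand): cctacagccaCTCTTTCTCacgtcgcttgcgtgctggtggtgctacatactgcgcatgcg
Rpl15 (chr14:18270957-18271016, minus strand): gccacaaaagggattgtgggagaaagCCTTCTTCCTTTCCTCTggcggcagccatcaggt
Rpl27a (chr7:109519165-109519224, plus strand): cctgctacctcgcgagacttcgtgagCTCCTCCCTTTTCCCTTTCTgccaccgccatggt
Rpl3l (chr17:24727796-24727855, plus strand): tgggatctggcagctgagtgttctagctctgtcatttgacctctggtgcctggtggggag

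The longest runs shown were those of Rpl27a, with 20 bases, and Rpl15, with 17 bases, and both began at base -4 from the annotated start. The run of Rps18 had 11 bases from base -2, and that of Rps26 had 8 bases from base 5. The runs of Rpl4 (13 bases from base -17) and Rpl5 (9 bases from base -20) ended before the annotated start. No run of the required length was found in the windows of Rplp0 and Rpl3l. Of the 80 genes, 60 had a start in the RefSeq table, 1 of them by a synonym (Rps3a). A run anywhere in the window, before or after the start, was found on the gene's strand for 42 of the 60 (70%). Among all genes with an entry it was found for 10831 of 27025 (40.1%). A counted or marked run is therefore not necessarily a TOP motif. A match describes these letters in these windows and does not show where transcription began in these tissues.

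The genes took a small part of the gene reads, and DRG and paw stood well apart. Their summed share was 0.167% ± 0.00098 in female DRG PRL and 0.177% ± 0.0025 in female DRG Veh (SD, n = 3 each). In males it was 0.168% ± 0.0045 in DRG PRL and 0.168% ± 0.0026 in DRG Veh. In paw the share was 0.550% ± 0.058 in female PRL, 0.647% ± 0.043 in female Veh, 0.477% ± 0.024 in male PRL and 0.528% ± 0.042 in male Veh. PRL libraries all lay below Veh libraries in female paw (0.483% to 0.585% against 0.619% to 0.696%). The same held in male paw (0.450% to 0.495% against 0.496% to 0.575%) and female DRG (0.166% to 0.168% against 0.174% to 0.179%). Male DRG groups overlapped (0.163% to 0.172% against 0.165% to 0.170%). No test was run on these sums. Over all rRNA-depleted libraries the share ran from 0.163% to 0.179% in DRG and from 0.450% to 0.696% in paw, so the tissues did not overlap. The mRNA kit libraries had 0.250% ± 0.015 in DRG PRL_Sh and 1.11% ± 0.16 in paw PRL_Sh (SD, n = 3 each), higher in each tissue than any rRNA-depleted library. Kit and PRL_Sh group cannot be told apart, so these were not compared by a test. Marker sums of the same libraries also differed. In female paw, fibroblast markers summed to 1961 to 3060 CPM in PRL_Sh and 16677 to 24184 CPM in PRL, and macrophage and leukocyte markers to 176.7 to 183.8 CPM in PRL_Sh and 1022 to 1490 CPM in PRL. In female DRG, sensory neuron markers summed to 18205 to 19664 CPM in PRL_Sh and 10320 to 12291 CPM in PRL, and fibroblast markers to 2310 to 2839 CPM in PRL_Sh and 4894 to 6876 CPM in PRL. The part of these cells in the shares was not tested. In whole tissue, fewer cells of a type and less RNA per cell cannot be told apart either.

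**Figure D1:**
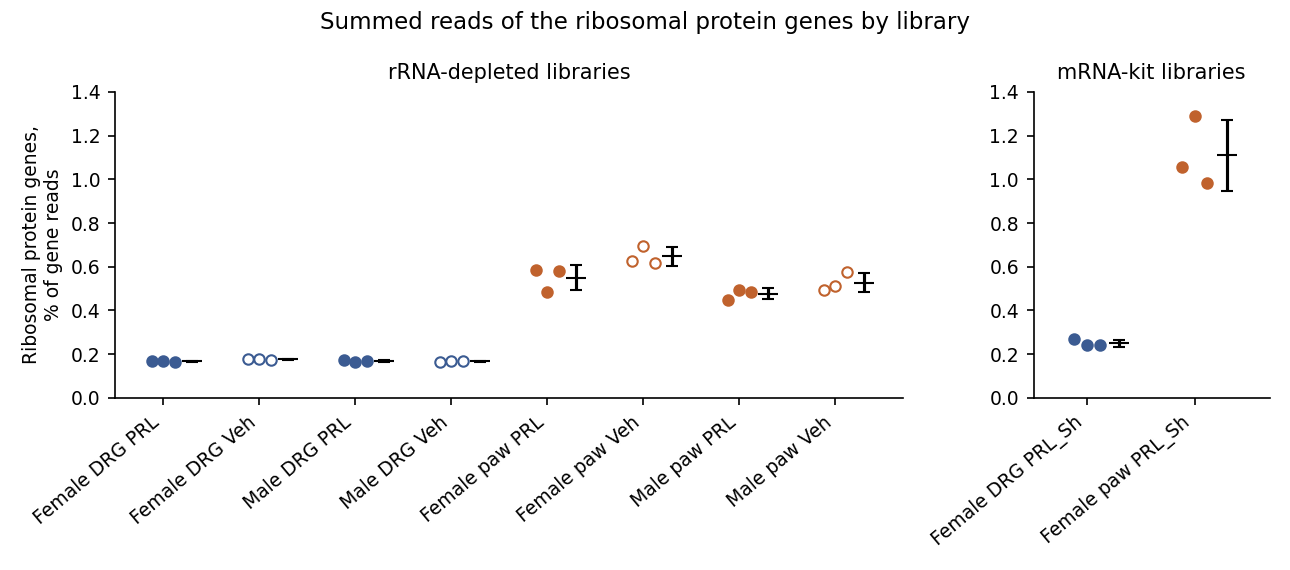
Reads of the 80 ribosomal protein genes as a percent of all gene reads (y axis) in each library of the 10 groups (x axis), with rRNA-depleted libraries on the left and mRNA kit libraries on the right. Blue marks DRG and orange paw, filled points PRL or PRL_Sh and open points Veh; black bars are mean ± SD of 3 libraries. DRG libraries lie between 0.163% and 0.179% on the left and every paw library there lies at 0.450% or more.

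Levels spread over several orders of magnitude between genes. Per kilobase of mRNA and over the 24 rRNA-depleted libraries, among the highest were Rpl8, a protein near the peptidyl transferase centre, at 423 CPM per kb, Rpl4, which lines the exit tunnel, at 302 CPM per kb, Rplp1, a protein of the stalk that recruits elongation factors, at 302 CPM per kb, and the small-subunit protein Rps15 at 238 CPM per kb. The lowest were Rpl10l and Rpl26, with no read in any of the 30 libraries, Rps23 with 7 reads in all, Rpl39l with 61 reads and Rpl30 with 96 reads. No read among 396159556 gene reads allows a level of up to 0.00757 CPM of counted reads (3 reads, counting error only). Which gene models were used for counting is not known here, so a low or absent count is a statement on counted reads and sets no limit on expression. Of the 80 genes, 13 averaged under 1 CPM, 40 reached at least 10 CPM and 12 at least 100 CPM, and the 5 most abundant held 41.8% of the genes' summed level.

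Rpl10l, a retrocopy of Rpl10 used in the male germ line, had no read, while Rpl10, which joins the large subunit late in its assembly, averaged 3.92 CPM over the 24 libraries. Rpl39l, the germ line paralog of Rpl39, averaged 0.0934 CPM, against 93.1 CPM for Rpl39. Rps27l, a p53-responsive paralog, averaged 22.6 CPM and its parent Rps27 0.874 CPM. Of read-length windows of the Rps27 mRNA, 1.35% occurred in no other annotated gene, against 77.6% for Rps27l. Reads that were not unique were set aside, so these levels do not rank Rps27l against Rps27. The order of the genes differed little between libraries. Over the 80 genes, Spearman's rho was 0.976 between female DRG PRL and female paw PRL, 0.956 between PRL_Sh and PRL in female DRG and 0.969 between PRL_Sh and PRL in female paw, and these points share genes of the same length and sequence.

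Much of the sequence of these mRNAs is not unique, which bears on every level given here. Windows of 50 nt, the read length, were cut from 1 annotated transcript per gene (GENCODE M21) and compared with all other annotated genes. A median of 50.05% of a gene's windows occurred in no other gene, from 1.35% for Rps27 to 100% for genes such as Rpl3l and Rpl39l, and 77 of 80 genes shared at least 1 window with an annotated pseudogene. The median level was 3.79 CPM per kb among the 19 genes with under 25% of windows to themselves and 43.8 CPM per kb among the 13 genes with at least 75%. Across genes the relation was weak (Spearman's rho 0.25, n = 80, genes of the same libraries). Rpl26, with 28.7% of its windows to itself, and Rps23, with 51.6%, had 0 and 7 reads. Of the reads in each file, 36.6% to 38.0% were set aside as not unique in rRNA-depleted DRG, 41.5% to 55.5% in rRNA-depleted paw (41.5% to 44.8% without male paw Veh replicate 2) and 31.7% to 48.3% in PRL_Sh. What this took from each gene was not tested, so levels of different ribosomal protein genes are uncertain, and so are fold changes of genes that share reads with a pseudogene.

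**Figure D2:**
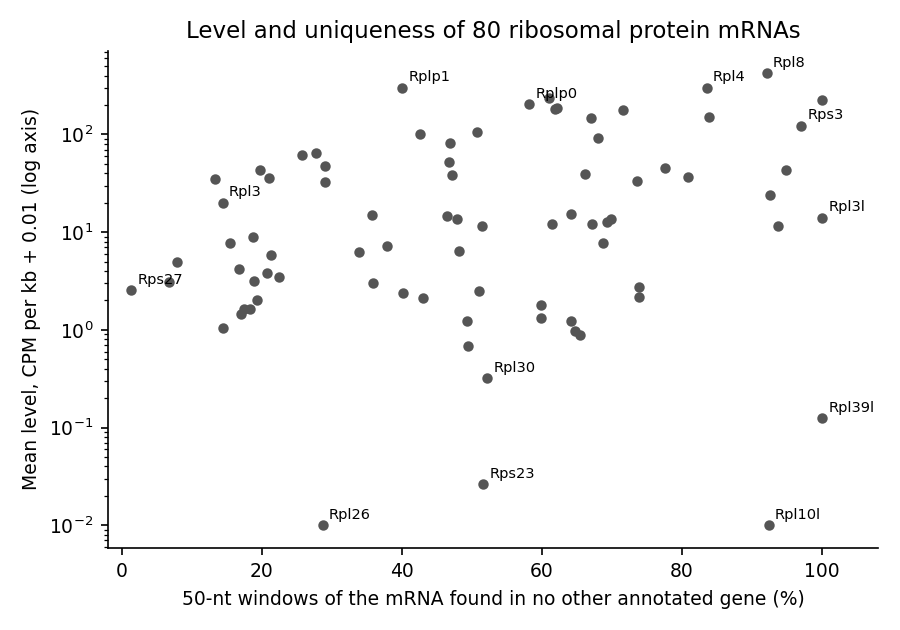
Mean level of each of the 80 genes over 24 rRNA-depleted libraries (y axis, CPM per kb plus 0.01, log axis) against the percent of 50-nt windows of its mRNA found in no other annotated gene (x axis). Each point is a gene; Rpl8 is highest at 423 CPM per kb, and Rpl10l and Rpl26 lie at the bottom with no read.

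Nearly all tested ribosomal protein genes were lower in DRG than in paw. Levels below are CPM scaled by the trimmed mean of M values (TMM) within each fit, and a gene was called where the quasi-likelihood F test of edgeR gave a Benjamini-Hochberg adjusted p under 0.05 over all genes tested. Among Veh libraries, 68 of 71 tested genes were lower in DRG and 1 was higher, beside 43.1% of all genes called lower and 42.7% called higher (85.8% either way). Among PRL libraries, 68 of 71 were lower and 1 higher, beside 44% and 39.2% of all genes (83.1% either way). Among PRL_Sh libraries, 68 of 74 were lower and 0 higher, beside 39.9% and 40.2% of all genes (80.2% either way). The median log2 fold change of the genes, DRG over paw, was -1.61 in Veh, -1.49 in PRL and -1.97 in PRL_Sh, against -0.01, -0.08 and -0.01 over all genes tested. The Veh and PRL comparisons share no library, and 65 of the 70 genes tested in all 3 comparisons were lower in DRG in all 3. Rpl10l, Rpl26, Rpl39l, Rps23 and Rps29 had too few reads for any of the 3.

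**Figure D3:**
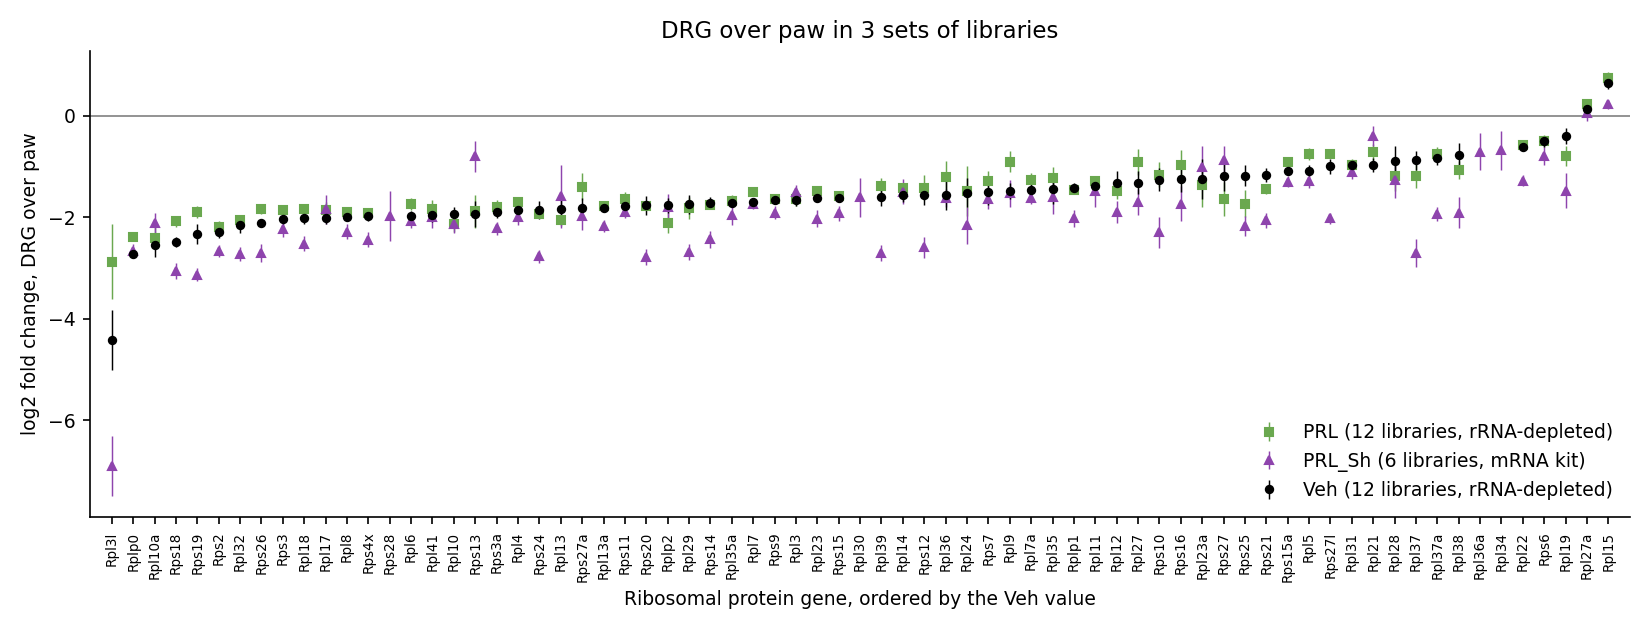
Log2 fold change of DRG over paw (y axis) for the tested ribosomal protein genes reported by name (x axis, ordered by the Veh value, or the PRL_Sh value where Veh was not tested) in PRL libraries (squares), PRL_Sh libraries (triangles) and Veh libraries (circles). Bars are standard errors of the edgeR fit; most genes lie between -3 and 0, Rpl3l lies lowest, and Rpl15 lies above 0 in all 3.

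In the large subunit, 40 of 43 tested genes were lower in DRG among Veh libraries, with a median log2 fold change of -1.56. The stalk protein Rplp0, through which the elongation GTPases are recruited, ran from 76.6 to 87.8 CPM in DRG Veh with a median of 81.3, against 494.7 to 586.3 CPM with a median of 525.6 in paw Veh (6 libraries each). The ranges did not overlap, and the fit gave a log2 fold change of -2.72 (SE 0.062, edgeR adjusted p = 2.41e-13). Rplp0 had a smaller fold change in PRL libraries (-2.38, SE 0.069), and in PRL_Sh libraries it was -2.66 (SE 0.13). Whether these changes differ was not tested. The other stalk proteins were lower too, Rplp1 by -1.42 and Rplp2 by -1.76 (log2, edgeR adjusted p = 4e-08 and 1.26e-07). Other large falls among Veh libraries were Rpl10a at -2.55 and Rpl32 at -2.16, and Rpl32 reached 32.4 to 38.2 CPM in DRG and 83.5 to 203 CPM in paw.

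In the small subunit, all 28 tested genes were lower in DRG among Veh libraries, with a median log2 fold change of -1.69. Rps18 had 7.64, 5.90, 6.42, 5.83, 6.55 and 6.11 CPM in the 3 female and 3 male DRG Veh libraries, against 37.9, 41.6, 36.8, 27.5, 33.5 and 38.2 CPM in the paw Veh libraries. Every DRG library lay below every paw library, and the log2 fold change was -2.48 (SE 0.10, edgeR adjusted p = 6.09e-11). Rps19, whose human counterpart is often mutated in Diamond-Blackfan anaemia, was at -2.32, Rps2 at -2.29, Rps26, which contacts the mRNA upstream of the start codon, at -2.11 and Rps3, at the mRNA entry site, at -2.04. Rps6, the substrate of the S6 kinases, had the change nearest 0 of the small subunit in Veh (-0.50, edgeR adjusted p = 0.000789) and in PRL (-0.49, edgeR adjusted p = 0.00232).

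In PRL_Sh the lowest log2 fold changes after Rpl3l were those of Rps19 (-3.13), Rps18 (-3.06), Rps20 (-2.78), Rps24 (-2.77), Rpl32 (-2.72), Rps26 (-2.71), Rpl39 (-2.70), Rpl37 (-2.70) and Rpl29 (-2.68). Rps19 was at 6.04, 6.81 and 5.62 CPM in DRG PRL_Sh, against 52.7, 60.6 and 48.2 CPM in paw PRL_Sh, with no overlap (edgeR adjusted p = 3.28e-07). Rps27l was at 9.61 to 12.0 CPM in DRG PRL_Sh, against 40.3 to 45.0 CPM in paw PRL_Sh, a log2 fold change of -2.02, while among Veh libraries it was -0.99. Whether the kits differ in these changes was not tested.

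A few genes departed from the pattern. Rpl15, a large-subunit protein, was the only gene called higher in DRG. It had 31.1, 31.4, 34.7, 37.1, 30.4 and 32.2 CPM in DRG Veh, against 21.9, 18.5, 24.4, 15.2, 27.0 and 19.3 CPM in paw Veh. All DRG values lay above all paw values, with a log2 fold change of 0.66 (SE 0.12, edgeR adjusted p = 0.000256). The change was 0.75 in PRL libraries (edgeR adjusted p = 8.8e-05), and in PRL_Sh it was 0.22 and missed the threshold (edgeR adjusted p = 0.053). Rpl27a was called in none of the 3, with log2 fold changes of 0.14 in Veh, 0.23 in PRL and 0.05 in PRL_Sh. Rpl21 and Rpl23a, a protein at the tunnel exit, missed the threshold in PRL_Sh, where Rpl23a was at or under 1.10 CPM in every library of both tissues. Rpl34 and Rpl36a, tested in PRL_Sh alone, were not called there.

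Rpl3l, the striated muscle paralog of Rpl3, had the widest range of all. Among Veh libraries it was at 0.364 to 4.76 CPM in DRG and 7.60 to 50.3 CPM in paw (log2 fold change -4.42, edgeR adjusted p = 1.12e-05), and in PRL_Sh at 0.490 to 3.02 CPM in DRG and 104 to 225 CPM in paw (-6.90, edgeR adjusted p = 1.64e-05). In PRL libraries the tissues overlapped, from 1.05 to 17.7 CPM in DRG and from 2.86 to 117 CPM in paw (-2.87, edgeR adjusted p = 0.00314). Its parent gene Rpl3 was at -1.67 in Veh, -1.63 in PRL and -1.49 in PRL_Sh.

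The level of Rpl3l moved with the 16 skeletal muscle markers within each tissue. Over the 12 rRNA-depleted DRG libraries, Pearson's r of the log2 levels was 0.956 and Spearman's rho 0.965, and over the 12 paw libraries they were 0.976 and 0.930 (permutation test with 100000 resamples, two-sided, p = 1e-05 for each, the smallest it can give, except p = 5e-05 for rho in paw). Without the 2 libraries farthest from the median muscle level, r was 0.927 in DRG and 0.962 in paw. Of these 2 relations, the Benjamini-Hochberg adjusted p of r was 1e-05 in each. The DRG library with the most muscle RNA, female DRG PRL replicate 1, had 2.75% of its gene reads in the muscle list and Rpl3l at 18.2 CPM, and male DRG Veh replicate 3 had 0.0288% and 0.415 CPM.

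**Figure D4:**
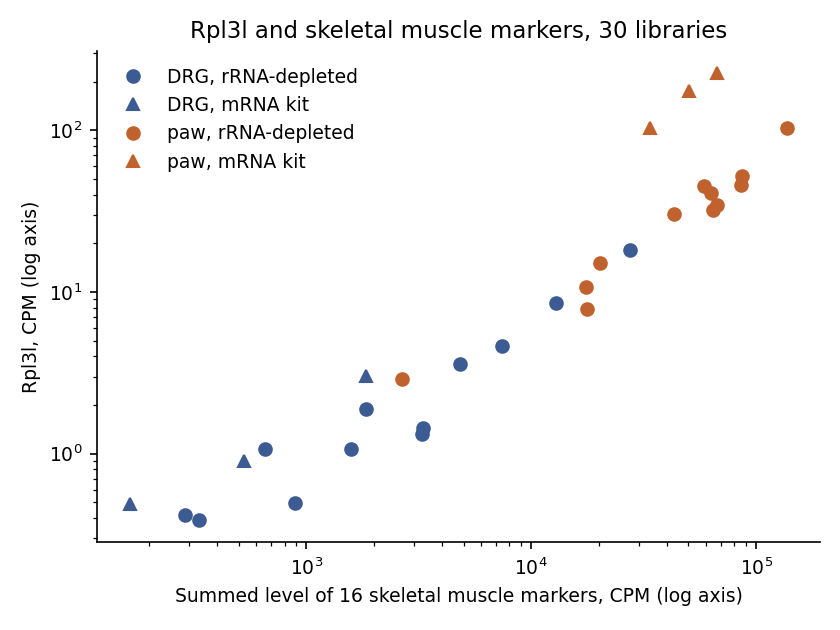
Level of Rpl3l (y axis, CPM of gene reads, log axis) against the summed level of 16 skeletal muscle markers (x axis, CPM, log axis) in each of the 30 libraries. Blue is DRG and orange paw, circles are rRNA-depleted and triangles mRNA kit libraries; Rpl3l is higher where the muscle list is higher, from 0.388 CPM in a DRG library to 226 CPM in a paw PRL_Sh library.

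Related genes were compared in the same fits. Of all genes tested, 43.1% were called lower in DRG and 42.7% higher among Veh libraries (85.8% either way). The shares were 44% and 39.2% in PRL and 39.9% and 40.2% in PRL_Sh. Rpsa, Fau and the other ribosomal protein genes outside the naming rule were all lower in DRG in each of the 3 comparisons (6 of 6), Rpsa by a log2 fold change of -1.78 in Veh. Of 17 other genes with TOP mRNAs, 15 were lower and 1 higher in Veh, with a median of -1.33, among them Gnb2l1, the scaffold protein of the small subunit also called Rack1, at -2.64 and the elongation factor Eef1a1 at -1.78. Of 33 genes of ribosome assembly and RNA polymerase I, 29 were lower and 3 higher, with a median of -0.72. Of 16 genes of mTORC1 and TOP control, 7 were higher and 6 lower in Veh, near the shares of all genes. They included the mTOR inhibitor Deptor at 1.28 and the translation repressor Eif4ebp2 at -2.37. Deptor was at 0.99 in PRL (edgeR adjusted p = 2.99e-06) and had the opposite sign in PRL_Sh, where it was at 5.31, 15.1 and 5.66 CPM in DRG and 28.8, 26.5 and 36.6 CPM in paw (-1.82, edgeR adjusted p = 0.0032). Eif4ebp2 was lower in DRG in all 3 comparisons, at -2.02 in PRL and -1.49 in PRL_Sh. The mitochondrial ribosomal proteins, which build a separate ribosome, were split, with 23 higher and 23 lower of 74 tested and a median of -0.05 in Veh. In PRL_Sh, 45 of these 74 were lower and 9 higher. Beside these counts, all 11 sensory neuron markers and all 6 Schwann cell markers were higher in DRG Veh and all 8 keratinocyte, 16 muscle and 6 fibroblast markers were lower there. The part of cell makeup in the tissue difference was not tested.

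In DRG no ribosomal protein gene was called after prolactin, and few of all genes were called there. In female DRG, 0 of 63 tested genes passed edgeR's test, beside 0.653% of all genes (0.292% higher and 0.36% lower), with 5 at an unadjusted p under 0.05 and 0 called by DESeq2. In male DRG, 0 of 63 passed, beside 0.517% of all genes (0.286% higher and 0.231% lower), with 1 at an unadjusted p under 0.05 and 0 called by DESeq2. For the average of the sexes, 0 of 63 passed, beside 3.6% of all genes (2.14% higher and 1.47% lower), with 4 at an unadjusted p under 0.05 and 0 called by DESeq2. These shares of all genes are at the adjusted threshold. None is given at an unadjusted p, so counts at an unadjusted p are no result about the ribosomal protein genes. The median log2 fold change, PRL over Veh, was -0.09 in females, with 48 of 63 genes below 0, and 0.01 in males, with 27 of 63 below 0, against medians of 0.00 over all genes in both.

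The gene nearest to a call in DRG was Rplp1, which had 78.3, 79.96 and 76.8 CPM in female PRL and 74.5, 73.1 and 82.7 CPM in male PRL, against 87.9, 92.9 and 84.4 CPM in female Veh and 77.3, 93.9 and 89.0 CPM in male Veh. The groups did not overlap in females and did in males. The average of the sexes was -0.17 (SE 0.052, edgeR adjusted p = 0.0895), and it passed without male DRG Veh replicate 1 (edgeR adjusted p = 0.0341), the only call that leaving out 1 DRG library made. Rps15 had a log2 fold change of -0.19 in females (edgeR adjusted p = 0.233). In males the smallest p values after Rplp1 were those of Rps25 (-0.87, edgeR adjusted p = 0.401) and Rpl23 (-0.18, edgeR adjusted p = 0.419). Rpl3l had a log2 fold change of 3.57 in females (edgeR adjusted p = 0.238) and 0.64 in males (edgeR adjusted p = 0.806). Beside it, the muscle list summed to 655.1 to 27531 CPM in PRL DRG and 288.3 to 7432 CPM in Veh DRG, and all 16 of its genes had positive values in both sexes with 0 called. Of 6 fibroblast markers, 4 rose in each sex, with sums of 4078 to 6876 CPM in PRL DRG and 2275 to 4243 CPM in Veh DRG. Of 6 Schwann cell markers, 2 rose in females and 1 in males, with sums of 22489 to 29560 CPM in PRL DRG and 14597 to 20782 CPM in Veh DRG. The part of these cells in the values of DRG was not tested.

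Before the paw results, 2 libraries are described that stood apart from the other 10 rRNA-depleted paw libraries, female paw PRL replicate 1 and male paw Veh replicate 1. They were chosen after the values were seen. In both, Rpl39, a small protein of the exit tunnel, was low at 60.5 and 70.8 CPM, against 126 to 199 CPM in the other 10. In both, Rpl41, the smallest ribosomal protein, was high at 104 and 83.3 CPM, against 42.0 to 67.2 CPM, and Rps2 was at 78.0 and 79.3 CPM, against 46.0 to 62.8 CPM. Of the 73 ribosomal protein genes tested in paw, both libraries lay above the other 10 for 6 (8.22%) and below them for 12 (16.4%), beside 4.87% and 3.84% of all 14721 genes tested. Because the choice followed these values, the shares describe the 2 libraries and are no test that they stand apart in these genes. Counts below are given with and without the 2 libraries. Male paw Veh replicate 2 stood apart in another way, with 6.87 M gene reads, which were 13.6% of its listed reads, and 55.5% of its listed reads not unique.

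In paw, the called genes were all lower after prolactin and they were few. In females, 1 of 73 tested genes fell and 0 rose, beside 1.01% of all genes called lower and 6.54% called higher (7.55% either way). In males, 3 of 73 fell and 0 rose, beside 10.1% lower and 12.3% higher (22.4% either way). For the average of the sexes, 6 of 73 fell and 0 rose, beside 10% lower and 14.9% higher (24.9% either way), so the share of ribosomal protein genes called lower was near or below that of all genes in males and in the average. Without the 2 libraries described above, 2, 6 and 9 of 74 fell and 0 rose. Shares of all genes are not given for this or for the other alternatives below, so these larger counts are no result about ribosomal protein genes. The median log2 fold change, PRL over Veh, was -0.21 in females, with 60 of 73 genes below 0, -0.04 in males, with 41 of 73 below 0, and -0.13 for the average, against -0.01, 0.02 and 0.01 over all genes.

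**Figure D5:**
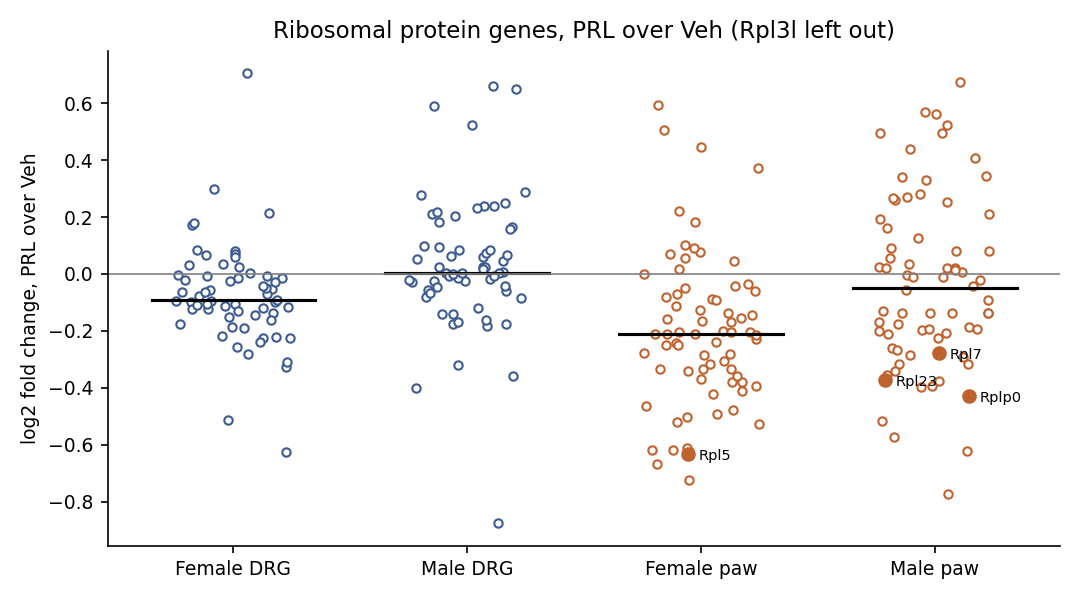
Log2 fold change of PRL over Veh (y axis) for each tested ribosomal protein gene except Rpl3l in female DRG, male DRG, female paw and male paw (x axis, points spread sideways at random). Filled, named points passed edgeR's test at an adjusted p under 0.05, open points did not, and black lines are medians of the points; 1 gene in female paw and 3 in male paw passed, all below 0.

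Rpl5, which with Rpl11 carries an rRNA of the large subunit and binds the p53 regulator Mdm2, was the gene called in female paw. It had 19.6, 29.6 and 27.7 CPM in female PRL, against 36.5, 43.0 and 39.4 CPM in female Veh, and 26.0, 23.6 and 26.8 CPM in male PRL, against 25.7, 31.2 and 35.1 CPM in male Veh. The female groups did not overlap and the male groups did. Its log2 fold change was -0.63 in females (SE 0.16, edgeR adjusted p = 0.0314) and -0.45 for the average (SE 0.11, edgeR adjusted p = 0.0124). The next in females were Rps15a at -0.49 (edgeR adjusted p = 0.065) and Rps3 at -0.38 (edgeR adjusted p = 0.118), both without overlap of the groups. The female count was 0 without female PRL replicate 1 or without any 1 of the 3 female Veh replicates, and 3 without female PRL replicate 3 or male Veh replicate 1. DESeq2 called 4.

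Rplp0 was the gene with the smallest p in male paw. It had 394, 400 and 371 CPM in male PRL, against 581, 497 and 487 CPM in male Veh, and 469, 367 and 453 CPM in female PRL, against 512, 565 and 519 CPM in female Veh. In each sex every PRL library lay below every Veh library. The log2 fold change was -0.43 in males (SE 0.11, edgeR adjusted p = 0.0187), -0.31 in females (SE 0.11, edgeR adjusted p = 0.14) and -0.37 for the average (SE 0.079, edgeR adjusted p = 0.00589). Rpl23, another large-subunit protein known to bind Mdm2, had 54.1, 54.1 and 53.5 CPM in male PRL, against 63.5, 77.5 and 68.4 CPM in male Veh (-0.37, edgeR adjusted p = 0.033). Rpl7 was at 78.2 to 80.9 CPM in male PRL, against 88.3 to 107 CPM in male Veh (-0.28, edgeR adjusted p = 0.0392). Neither gene's groups overlapped in males. The male count was 1 without male PRL replicate 1, male PRL replicate 2 or male Veh replicate 2, and 0 without male PRL replicate 3. Without male Veh replicate 3 it was 7, of which 5 rose and 2 fell. DESeq2 called 4.

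Among the 6 genes that fell in the average of the sexes were Rplp0, Rpl5, Rpl23, Rpl7 and Rps19. Rps19 was at -0.28 (SE 0.094, edgeR adjusted p = 0.0464). Of the 6, Rplp0 alone had all 6 PRL libraries below all 6 Veh libraries, from 367 to 469 CPM in PRL and from 487 to 581 CPM in Veh. The count was 3 without female Veh replicate 2 or male PRL replicate 3, and 12 without male Veh replicate 1. DESeq2 called 12.

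Markers of other cell types moved with the treatment in paw. The 6 fibroblast markers summed to 16677 to 30085 CPM in PRL paw and 6484 to 15505 CPM in Veh paw, without overlap, and the 9 macrophage and leukocyte markers to 1022 to 1490 CPM in PRL paw and 381.9 to 731.9 CPM in Veh paw, also without overlap. In the average of the sexes, 3 of 6 fibroblast and 9 of 9 macrophage and leukocyte markers rose, beside 14.9% of all genes. In the same comparison 3 of 8 keratinocyte markers fell, beside 10% of all genes, and 0 of 16 muscle markers were called. Keratinocyte markers summed to 36516 to 49695 CPM in female PRL paw and 39950 to 52882 CPM in female Veh paw, which overlapped. In males they summed to 31984 to 42376 CPM in PRL and 52384 to 61608 CPM in Veh, without overlap. Muscle markers summed to 2664 to 137040 CPM in PRL paw and 17494 to 85836 CPM in Veh paw. The part of these cells in the values of the ribosomal protein genes was not tested.

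Related genes were counted in paw beside all genes tested, of which 10% were called lower and 14.9% higher in the average of the sexes. In the average of the sexes, 3 of 17 other TOP genes fell and 0 rose, namely the initiation factor subunits Eif3h (log2 fold change -0.28, edgeR adjusted p = 0.00515) and Eif3e (-0.25, edgeR adjusted p = 0.0195) and the elongation factor Eef2 (-0.29, edgeR adjusted p = 0.0218). Of 33 assembly genes, 2 fell, Wdr43 (-0.21) and Ltv1 (-0.22), and of 16 genes of mTORC1 and TOP control 1 fell, Larp4 (-0.26). Among the ribosomal protein genes outside the naming rule, Rpl7l1 rose (0.24, edgeR adjusted p = 0.0168). Of 74 mitochondrial ribosomal protein genes 0 were called, beside 24.9% of all genes either way, with a median of 0.01. In the average of the DRG comparisons, Deptor fell by 0.20 on the log2 scale (edgeR adjusted p = 0.021).

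The sexes were compared directly. Shares of all genes below are at the adjusted threshold. None is given at an unadjusted p, so counts at an unadjusted p are no result about the ribosomal protein genes. The difference of the prolactin response, female minus male, passed edgeR's test for 0 of 63 genes in DRG (5 at an unadjusted p under 0.05, 0 called by DESeq2, beside 0% of all genes) and for 0 of 73 in paw (6 at an unadjusted p under 0.05, 0 called by DESeq2, beside 0.00679% of all genes). The smallest p in paw was that of Rpl28, at a difference of 1.37 (edgeR adjusted p = 0.279), and in DRG that of Rps15, at -0.24 (edgeR adjusted p = 0.993). Between female and male Veh libraries, 0 of 63 genes passed in DRG (2 at an unadjusted p under 0.05, 0 called by DESeq2, beside 0.0544% of all genes, 0.0204% higher and 0.034% lower) and 0 of 73 in paw (18 at an unadjusted p under 0.05, 0 called by DESeq2, beside 0.109%, 0.0408% higher and 0.0679% lower). In paw Veh, 62 of the 73 genes had higher fitted values in females, with a median log2 fold change of 0.21 against 0.00 over all genes. In the same libraries fibroblast markers summed to 6484 to 8512 CPM in females and 9610 to 15505 CPM in males, without overlap, and keratinocyte markers to 39950 to 52882 CPM in females and 52384 to 61608 CPM in males. Their part in the sex difference was not tested. Rpl8 had 639, 700 and 641 CPM in female paw Veh, against 512, 507 and 582 CPM in male paw Veh, without overlap (log2 fold change 0.31, edgeR adjusted p = 0.414). Rps24 had 115, 120 and 105 CPM in female paw Veh, against 41.3, 71.1 and 105 CPM in male paw Veh (0.65, edgeR adjusted p = 0.505), where the lowest value is that of male Veh replicate 1. Without female paw PRL replicate 1 and male paw Veh replicate 1, the median of the sex difference in paw Veh was 0.24 and the count stayed at 0.

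Levels in the mRNA kit libraries are set beside those of the rRNA-depleted female PRL libraries without a test, since they were scaled in separate fits. The female PRL values here were scaled in the fit of 12 PRL libraries. For Rplp1 they therefore differ slightly from the values given above, which were scaled in the DRG fit. Rplp2, a stalk protein, had 44.6, 25.5 and 22.8 CPM in DRG PRL_Sh, against 3.52, 5.29 and 4.31 CPM in female DRG PRL. Rplp1 had 174, 159 and 160 CPM in DRG PRL_Sh, against 74.2, 77.8 and 76.3 CPM in female DRG PRL. Rpl39 differed in the other direction, with 12.5, 13.8 and 14.3 CPM in DRG PRL_Sh, against 46.7, 46.6 and 51.0 CPM in female DRG PRL. The marker sums given above for these female DRG groups differed as well, and their part was not tested. Both Rplp1 and Rplp2 were higher and Rpl39 lower in every PRL_Sh library of DRG than in every female PRL library of DRG.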

How the data were processed

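Per the labels' protocols, 500 ng of RNA per library was depleted of rRNA or, for PRL_Sh, selected for mRNA in strand-specific kits, and sequenced as single 50-nt reads. Among tools, bcl2fastq, TopHat2 and HTSeq appear in the submitters' processing notes, with mm9 as assembly. For none of these is a version, mode or strand option known (not given in the sources used here), so reads of overlapping antisense genes may not have been separated. The deposited values are raw read counts per gene, unscaled, with 5 summary lines that name no gene and were left out. Gene reads made up 26.4% to 28.1% of the reads listed in rRNA-depleted DRG, 13.6% to 26.2% in rRNA-depleted paw (22.3% to 26.2% without male paw Veh replicate 2) and 42.2% to 56.8% in PRL_Sh.

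The quasi-likelihood test of edgeR 4.0.16 (R 4.3.3) was run on these counts (filterByExpr, TMM, F test, Benjamini-Hochberg over all genes tested, threshold 0.05). DRG and paw each had a fit of 12 rRNA-depleted libraries with a mean per group, tissues were compared in a fit of 12 Veh and of 12 PRL libraries, and PRL_Sh in a fit of 6. This gave 13 comparisons. Standard errors come from the fit. CPM without TMM were used for shares, gene levels over 24 libraries, marker sums and Rpl3l against muscle. Level per kilobase uses 1 GENCODE M21 transcript per gene. Intervals and limits for a count of 0 cover counting error only.

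In each comparison up to 10 genes called higher and 10 called lower with the largest change were eligible to be named, or the 3 with the smallest p where fewer than 3 passed, besides paralogs and their parents, the extremes of level and spread, and up to 3 called genes of other lists. Other genes were named after their values were seen, among them Rplp1 and Rplp2 by tissue, Rps6, Rps24, the tissue exceptions and the genes set out for single libraries. Members and lists were chosen with earlier results of these data known. Alternatives were DESeq2 1.42.0, other scalings and filters, a replicate block, the 2 groups alone and leaving out libraries. The code was tested on simulated counts. Results of some genes are counted in the totals and not reported by name here.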

Additional observations from a re-analysis of the deposited data

How the results depend on the processing

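Numbers of genes called were within 1.5 times of those reported for all 3 tissue comparisons under every alternative (DESeq2 gave 68, 70 and 66 genes in Veh, PRL and PRL_Sh, and leaving out 1 library gave 69 to 71, 69 to 71 and 65 to 68). The calls of prolactin in paw were fragile. No shares of all genes are given for these alternatives, so changes in count are not results about the ribosomal protein genes. In female paw the count was 2 with the replicate block, 0 with only the 2 groups, 4 by DESeq2, 2 without female PRL replicate 1 and male Veh replicate 1 together, and 0 to 3 when 1 library was left out. In male paw it was 6 without those 2 libraries together and 0 to 7 when 1 was left out, and in the average of the sexes 12 by DESeq2 and 3 to 12 when 1 was left out. The DRG average gave 0 to 1. The replicate numbers did not pair the samples (the correlation of same-numbered deviations was not above 0.1 for every pair in any comparison), and the replicate block moved no other count by over 1.5 times. Leaving out the 2 libraries together was chosen after seeing the data. The cause of these shifts was not tested. Among the genes chosen to be named in each comparison, for which alone single-gene alternatives were computed, those that changed sign were paralogs or their parents, and none of these was called in the comparison concerned. In log2 fold change, PRL over Veh in male paw, Rps27l was -0.00012 with RLE scaling, -2.45e-05 with library totals and -0.022 with no filter on low counts, and Rpl39 was -0.0074 with no filter. Rps27 in female over male paw Veh was 0.068 with library totals and 0.046 with the replicate block. Without the 2 libraries together, female paw gave Rpl3l 0.015 and Rpl3 -0.28, male paw gave Rpl3 0.017, Rpl39 -0.25 and Rps27l -0.24, the female minus male response in paw gave Rpl3 -0.30, Rpl10 0.0025, Rps27l 0.061 and Rps27 -0.020, and female over male paw Veh gave Rps27l -0.056 and Rps27 0.35. Leaving out 1 library gave, in female DRG, Rpl10 -0.25 to 0.022 and Rpl39 -0.10 to 0.092; in male DRG, Rpl3l -0.81 to 1.73; in the DRG average, Rpl3 -0.040 to 0.029 and Rpl10 -0.0063 to 0.14; and in female over male DRG Veh, Rpl39 -0.15 to 0.055. In female paw it gave Rpl3l -1.44 to 0.32, Rpl3 -0.28 to 0.25 and Rps27 -0.14 to 0.18. In male paw it gave Rpl3 -0.28 to 0.017, Rpl39 -0.25 to 0.39 and Rps27l -0.24 to 0.20. In the paw average it gave Rpl3l -0.12 to 0.76 and Rpl3 -0.23 to 0.037. The female minus male response in paw gave Rpl3 -0.10 to 0.43 and Rpl10 -0.26 to 0.062, and female over male paw Veh gave Rpl3l -0.79 to 0.11, Rpl3 -0.036 to 0.25, Rps27 -0.22 to 0.35 and Rps27l -0.055 to 0.39. The 13 genes that averaged under 1 CPM rest on few counted reads, and the reason for their low counts was not tested.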
